A study of Mus musculus with 6 samples.

Results

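The genes described here encode the subunits of the proteasome and of the immunoproteasome, with their activators, an inhibitor and assembly factors. They are the protein-coding genes of the deposited table whose mouse symbol begins with Psma, Psmb, Psmc, Psmd, Psme, Psmf or Psmg followed by a number. There were 50 such genes among the 22288 left once transcript rows were added to their gene. The naming rule uses no measured value, but the genes were chosen with earlier results of these data known. RNA had been sequenced from naive CD8 T cells purified from the spleens of wild-type C57BL/6 mice, an inbred strain. All cells had been activated for 48 h with antibodies to CD3 and CD28, which together imitate the signals of an antigen-presenting cell, in medium holding serum, 2-mercaptoethanol and IL-2. A group of 3 libraries received the solvent DMSO, and the other group of 3 libraries received ponatinib at 10 nM, a drug made to inhibit the kinase BCR-ABL that also inhibits many others. Mouse age, the purity of the cells and whether the 3 libraries of a group came from separate mice or cultures are not given in the labels. So p-values reflect the scatter of these libraries alone, some of which may be technical.

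The proteasome is the protease that degrades ubiquitin-tagged proteins. Its 20S core is a barrel of alpha and beta rings whose proteolytic sites sit on 3 beta subunits, and its 19S cap has a base, with a ring of ATPases that unfolds the substrate, and a lid that removes ubiquitin. In lymphocytes and after interferon, the catalytic subunits encoded by Psmb5, Psmb6 and Psmb7 are largely replaced by those of Psmb8, Psmb9 and Psmb10, and the activator PA28, made of the products of Psme1 and Psme2, can take the place of a cap. This immunoproteasome is known for producing many of the peptides that MHC class I presents, and activated T cells, which divide fast, depend on proteasome activity for cell cycle progression.

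Levels are in TPM, transcript abundances relative to the library total, which are divided by transcript length and so can be compared between genes. They carry no read depth and cannot tell fewer cells of a type from less RNA per cell. A level of 10 TPM was reached by 6551 to 6972 genes, depending on the library. The CD8 T cell markers were present, with a summed level of 1922 to 2038 TPM over Cd8a, Cd8b1, Cd3e, Cd3d, Cd3g and Trac in DMSO and 2239 to 2527 TPM with ponatinib. Of these 6 markers 3 rose in the limma test described below (adjusted p under 0.05), where 27.3% of all kept genes rose. Of 4 CD4 T cell, 6 myeloid and 5 erythroid and platelet markers 0 reached a mean of 10 TPM. Their summed levels were 5.49 to 14.9, 2.61 to 3.18 and 0.366 to 1.20 TPM in DMSO and 18.4 to 22.9, 7.38 to 9.31 and 2.16 to 4.87 TPM with ponatinib. Of 6 B cell markers Cd79b and Ighm reached it, with sums of 222 to 267 and 271 to 291 TPM over the list, as did Eomes of 4 NK cell markers, with sums of 18.4 to 30.8 and 34.0 to 42.8 TPM. Each of these markers was above 0 in at least 1 library, and Ncr1, which defines NK cells, was listed at 0 in all 3 DMSO libraries but above 0 in the ponatinib libraries, at 0.157, 0.102 and 0.229 TPM. Cd79b was higher with ponatinib by 0.67 (adjusted p = 0.00585), as was Eomes by 0.66 (adjusted p = 0.0198, but 0.0601 without ponatinib 2 and 0.0826 without ponatinib 3), while Ighm, which makes up most of the B cell sum, was not called (0.13, adjusted p = 0.261). Their part in the results was not tested. The library DMSO 3 stood apart from DMSO 1 and DMSO 2. It had 4.78% of its TPM in mitochondrial genes, against 9.76% and 10.7% in the other DMSO libraries and 7.16% to 8.19% with ponatinib. Its log2 level lay above the mean of DMSO 1 and 2 by a median of 0.10 over all genes kept for testing, but by 0.005 over the proteasome genes.

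Of the 50 genes, 48 averaged 10 TPM or more across all libraries and were kept for testing. Psma8, the testis-specific alpha subunit, and Psmb11, the beta subunit of thymic epithelium, were not kept. Psma8 lay between 0.0466 and 0.393 TPM, and Psmb11 was listed at 0 in 5 of the 6 libraries and at 0.0114 TPM in DMSO 1. Psmc3ip matches the naming rule and is counted among the 48, but it encodes a partner of meiotic recombinases and no proteasome subunit.

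With ponatinib, 11 of the 48 genes rose and 1 fell at an adjusted p under 0.05 (limma on log2(TPM + 1), Benjamini-Hochberg over all 6816 kept genes), while 36 were not called. Among all kept genes 27.3% rose and 9.13% fell. Among the proteasome genes the shares were 22.9% and 2.08%. The genes that rose encode the immune catalytic subunit Psmb10, the nuclear activator Psme3, the base ATPases Psmc1, Psmc2, Psmc4 and Psmc5, and the base and lid subunits or base assembly factor Psmd1, Psmd2, Psmd5, Psmd6 and Psmd7. The lid subunit gene Psmd8 fell. None of the 14 kept core genes outside the immune group (7 alpha, 7 beta) passed the test in either direction. At an unadjusted p under 0.05, 1 of these 14 was higher, Psma5, and 0 were lower. The share of all kept genes at that unadjusted threshold is not given, so this count has nothing to be set against.

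The changes were small. The median absolute log2 fold change was 0.09 over the 48 genes and 0.174 over all kept genes, and 43 of 48 (89.6%) lay within 0.25 of 0, against 65.4% of all kept genes and 70.4% of those with a mean of at least 100 TPM. The median standard error was 0.058, against 0.08 over all kept genes. In 15 of the 48 genes (31.2%) the 3 ponatinib libraries all lay above the 3 DMSO libraries, and in 3 (6.25%) they all lay below. Among all kept genes these shares were 37.6% and 13.8%. The proteasome genes together took 1.08% of the TPM in each DMSO library and 1.09%, 1.11% and 1.14% in the ponatinib libraries.

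**Figure D1:**
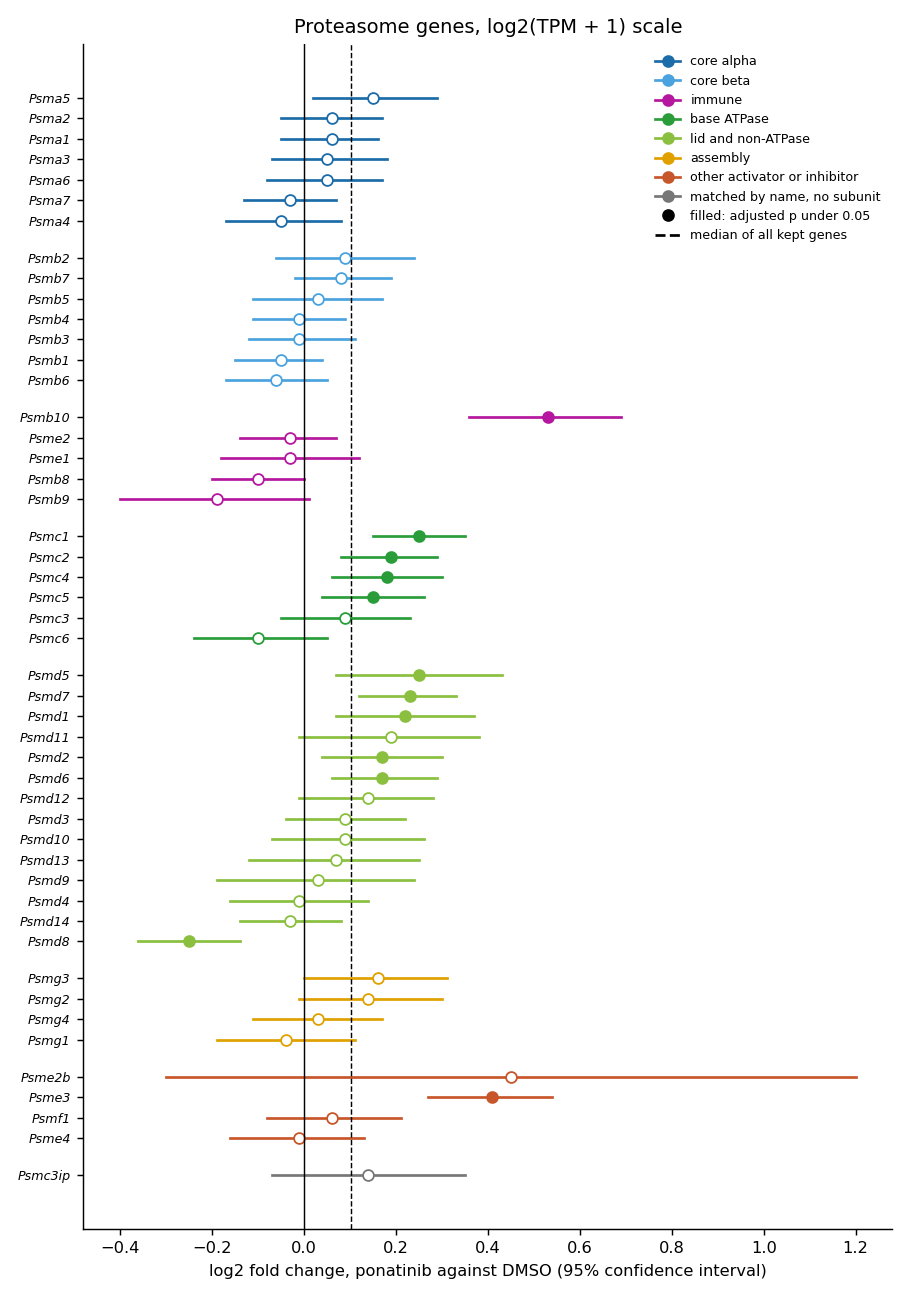
Log2 fold change of ponatinib against DMSO for the 48 kept genes, ordered by group, on the log2(TPM + 1) scale. Points are limma estimates from 3 libraries per group and bars their 95% confidence intervals. Filled points passed an adjusted p of 0.05, and the dashed line is the median of all kept genes, 0.10. Psmb10 and Psme3 lie farthest to the right among the filled points, and Psmd8 is the filled point left of 0.

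The scaling of the libraries matters for shifts of this size. The median log2 fold change of all 6816 kept genes was 0.10, and scaling the libraries by medians of ratios moved it to 0.003, so that the kept genes moved down by about 0.10. Under that scaling 3 proteasome genes were higher, Psmb10, Psme3 and Psmc1, and 6 were lower, Psmd8 with Psmb1, Psmb8, Psmb9, Psmc6 and Psmd14. The shares of all kept genes were then 15.5% higher and 16.7% lower. Of the 12 calls, those of Psmb10, Psme3, Psmc1 and Psmd8 held in all 15 alternative analyses, and that of Psmd7 in 14. Relative values within a library, which do not depend on the scaling, are given beside the groups.

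Those 4 genes are shown first by the sequence just before their transcripts, as context for their changes. RefSeq start windows of 300 bases (250 before to 50 after the start, GRCm38.p6) were at hand for 42 of the 50 genes. The part of each window outside exons is printed in transcript orientation. Capitals mark a CCAAT box (the NF-Y site, ATTGG on the other strand) or a GC box, GGGCGG.
Psmb10: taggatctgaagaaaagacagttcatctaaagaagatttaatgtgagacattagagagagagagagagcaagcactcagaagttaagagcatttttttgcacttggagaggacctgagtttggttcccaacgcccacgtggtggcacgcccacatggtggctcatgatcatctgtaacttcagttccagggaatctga
Psme3: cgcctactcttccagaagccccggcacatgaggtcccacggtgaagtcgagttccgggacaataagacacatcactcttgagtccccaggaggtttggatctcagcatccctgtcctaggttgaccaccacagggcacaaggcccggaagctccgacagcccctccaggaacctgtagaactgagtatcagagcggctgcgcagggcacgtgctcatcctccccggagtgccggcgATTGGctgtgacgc
Psmc1: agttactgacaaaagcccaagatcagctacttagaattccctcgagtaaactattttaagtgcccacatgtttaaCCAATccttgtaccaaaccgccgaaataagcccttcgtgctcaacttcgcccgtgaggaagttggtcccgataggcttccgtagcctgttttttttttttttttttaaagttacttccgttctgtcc
Psmd8: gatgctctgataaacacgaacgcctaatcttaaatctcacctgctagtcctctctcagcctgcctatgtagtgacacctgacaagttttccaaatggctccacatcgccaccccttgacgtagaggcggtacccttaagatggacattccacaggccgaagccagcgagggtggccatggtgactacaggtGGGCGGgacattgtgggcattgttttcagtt
They are Psmb10 (chr8:105938445-105938642, minus strand), Psme3 (chr11:101315963-101316212, plus strand), Psmc1 (chr12:100109952-100110153, plus strand) and Psmd8 (chr7:29180702-29180923, minus strand). In GENCODE M21 none of these 4 stretches overlaps an exon of another gene, and their GC content was 44.9%, 60.8%, 42.6% and 52.3%. The printed stretch of Psmb10 holds none of the 4 motifs counted here, which says only that these letters are not there.

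The motifs were counted on both strands in the whole windows. A gene was counted if any of its windows held the letters, while the share of all windows counts each window. The units differ, which can raise the share among the genes. The letters TGACNNNGC are the core of the antioxidant response element that NRF1 and NRF2 bind. They were found for 6 of 42 genes (14.3%), Psmb5, Psmb6, Psmc6, Psmd9, Psmd12 and Psme4, against 12.4% of all 32851 windows. Of the genes that rose, 10 had a window, and the letters were found for 0 of these. CCAAT was found for 15 of the 42 genes (35.7%) against 37.4% of all windows, and GGGCGG for 23 (54.8%) against 35.7%. The interferon regulatory element was found for 5 genes (11.9%) against 3.44% of all windows, and among the 5 immune genes for Psme1 alone. A match is a run of letters in this window and shows no binding.

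The core particle comes first. The 7 kept alpha ring genes had mean levels of 158 to 599 TPM, and their log2 fold changes ran from -0.05 to 0.15. Psma7, the most abundant of them, stood at 613, 616 and 584 TPM in DMSO libraries 1 to 3 and 577, 599 and 603 TPM with ponatinib, and the groups overlapped (log2 fold change -0.03, adjusted p = 0.667). Psma5 stood at 205, 192 and 204 TPM in DMSO and 209, 226 and 234 TPM with ponatinib. All its ponatinib libraries lay above the DMSO libraries, but the test was missed (log2 fold change 0.15, 95% confidence interval 0.02 to 0.29, adjusted p = 0.0720). It passed without ponatinib 1 (adjusted p = 0.0378). Psma1 stood at 273, 264 and 275 TPM in DMSO and 275, 278 and 292 TPM with ponatinib, a difference of 0.06 (adjusted p = 0.350). The others, Psma2, Psma3, Psma4 and Psma6, differed by -0.05 to 0.06 and overlapped between groups. Psma2 shares 8943 bases of gene body with AW209491 on the same strand, which stood at 11.6 to 13.6 TPM over the 6 libraries.

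The 7 kept beta ring genes outside the immune set had mean levels of 207 to 468 TPM and differed by -0.06 to 0.09. Psmb5 encodes the chymotrypsin-like subunit and stood at 384, 382 and 348 TPM in DMSO and 357, 392 and 388 TPM with ponatinib (log2 fold change 0.03, 95% confidence interval -0.11 to 0.17, adjusted p = 0.722). Psmb6 encodes the caspase-like subunit and stood at 435, 451 and 413 TPM in DMSO and 406, 419.6 and 418 TPM with ponatinib (log2 fold change -0.06, interval -0.17 to 0.05, adjusted p = 0.333). In both genes the groups overlapped, and the intervals leave room for changes of up to 0.17 in size. Psmb7 encodes the trypsin-like subunit and stood at 301, 311 and 308 TPM in DMSO and 316, 324 and 336 TPM with ponatinib. Its groups did not overlap, but the difference of 0.08 did not pass the test (interval -0.02 to 0.19, adjusted p = 0.170). Among the structural beta subunits, Psmb1 stood at 210.0, 212 and 209.5 TPM in DMSO and 205, 201 and 202 TPM with ponatinib, with all ponatinib libraries below (log2 fold change -0.05, adjusted p = 0.340). Its difference passed with medians of ratios (-0.16, adjusted p = 0.0482). Psmb2 stood at 289, 268 and 304 TPM in DMSO and 306, 288 and 324 TPM with ponatinib, and the groups overlapped (log2 fold change 0.09, adjusted p = 0.294). Psmb3 and Psmb4 both differed by -0.01. The gene body of Psmb7 overlaps that of Nek6 on the other strand by 6571 bases, and the sources used here do not say that counting used the strand. Nek6 itself stood at 19.8 to 26.6 TPM in DMSO and 35.1 to 38.4 TPM with ponatinib, and its part in the Psmb7 values was not tested.

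The 5 immune genes did not move together. There 1 rose, 0 fell and 4 were not called, where 27.3% of all kept genes rose and 9.13% fell. The median log2 fold change of the 5 genes was -0.035. Under medians of ratios 1 was higher and 2 were lower, against 15.5% and 16.7% of all kept genes. Psmb10 (chr8:105935735-105938444, minus strand, GRCm38) encodes the immune trypsin-like subunit MECL-1. It stood at 84.1, 93.6 and 86.6 TPM in DMSO and 137, 128 and 117 TPM with ponatinib. The groups did not overlap, and the mean rose from 88.1 ± 4.93 to 127 ± 10.3 TPM (SD, n = 3 per group), 1.45-fold. The log2 fold change was 0.53 with a standard error of 0.073 (95% confidence interval 0.36 to 0.69, limma adjusted p = 0.00174), and with 1 library left out the adjusted p was at most 0.0105. It was 0.42 with medians of ratios (adjusted p = 0.00926). It had the largest change of all 48 genes.

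Psmb8 (chr17:34197721-34201454, plus strand), which encodes the immune chymotrypsin-like subunit LMP7, had the highest mean level of all 50 genes, 699 TPM. It stood at 714, 725 and 728 TPM in DMSO and 701, 666 and 661 TPM with ponatinib. Every ponatinib library lay below every DMSO library, but the difference of -0.10 did not pass (95% confidence interval -0.20 to 0.00, adjusted p = 0.112). It passed with medians of ratios (-0.20, adjusted p = 0.0258). Transcript Psmb8-203, which has a row of its own in the deposited table, held 62.7% of this level and stood at 452, 467 and 447 TPM in DMSO and 428, 428 and 411 TPM with ponatinib. The rest of the gene stood at 262, 259 and 281 TPM and at 274, 238 and 249.8 TPM, so that it was the transcript row in which the groups did not overlap. Psmb9 (chr17:34181987-34187764, minus strand), which encodes the immune caspase-like subunit LMP2, stood at 178, 184 and 222 TPM in DMSO and 181, 164 and 165 TPM with ponatinib. Its highest value was in DMSO 3 and the groups overlapped (log2 fold change -0.19, interval -0.40 to 0.01, adjusted p = 0.123). Without DMSO 3 the difference was -0.09 (adjusted p = 0.200), and with medians of ratios it was -0.29 and passed (adjusted p = 0.0235).

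The PA28 genes Psme1 and Psme2, which lie 5911 bases apart on chromosome 14, had mean levels of 577 and 576 TPM in DMSO and of 565 and 562 TPM with ponatinib. Psme1 stood at 577, 528 and 627 TPM in DMSO and 583, 546 and 565 TPM with ponatinib (log2 fold change -0.03, 95% confidence interval -0.18 to 0.12, adjusted p = 0.769). Psme2 stood at 580, 592 and 554 TPM in DMSO and 578, 559 and 548 TPM with ponatinib (log2 fold change -0.03, interval -0.14 to 0.07, adjusted p = 0.584). The groups overlapped in both genes.

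**Figure D2:**
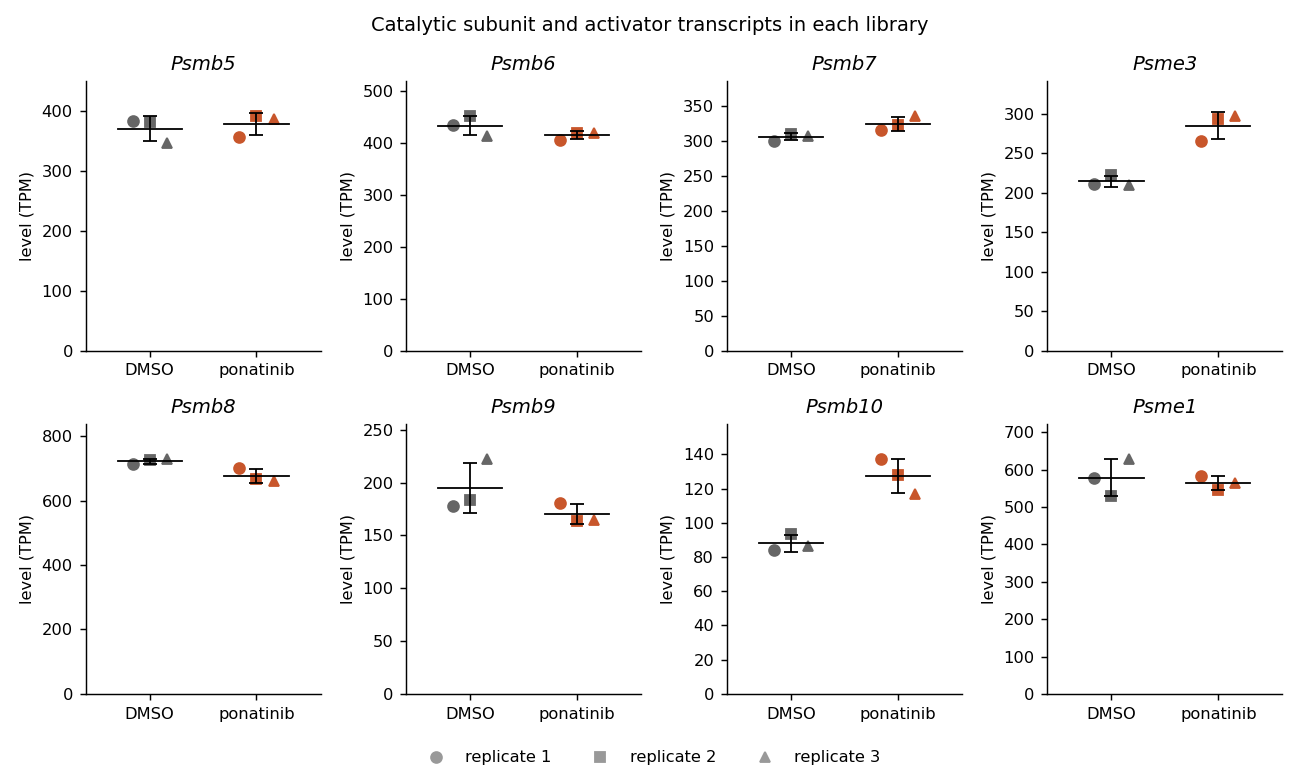
Levels in TPM, on axes that start at 0, of the 3 constitutive catalytic subunit genes above their immune counterparts, and of the activator genes Psme3 and Psme1. Each point is a library, its shape the replicate number, and the long and short bars are the mean and SD of 3 libraries. The ponatinib points lie clear above the DMSO points for Psmb10 and Psme3, by a small margin for Psmb7, and below them for Psmb8, where the difference did not pass the test.

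Whether the balance of immune to constitutive catalytic subunits differed was asked with ratios within each library, which the scaling cannot change. An exact two-sided permutation test of 3 against 3 libraries cannot give a p under 0.1, so none of the 3 ratios could pass. The ratio of Psmb10 to Psmb7 was 0.280, 0.301 and 0.282 in DMSO and 0.434, 0.395 and 0.348 with ponatinib. It was higher in all 3 ponatinib libraries, by 0.45 on the log2 scale (exact permutation p = 0.1, adjusted over the 3 ratios 0.3). Psmb8 to Psmb5 was 1.86, 1.90 and 2.09 in DMSO and 1.96, 1.70 and 1.70 with ponatinib, a log2 difference of -0.13 (exact permutation p = 0.3, adjusted 0.45). Psmb9 to Psmb6 was 0.410, 0.409 and 0.538 in DMSO and 0.447, 0.390 and 0.394 with ponatinib, a log2 difference of -0.13 (exact permutation p = 0.5, adjusted 0.5), which was 0.0008 without DMSO 3. In both of these ratios the groups overlapped. In the transcript pool, the immune subunit was the more abundant of the pair only for Psmb8, in all 6 libraries. Within the immune trio the ratio of Psmb10 to Psmb8, chosen after the values were seen and not tested, was 0.118, 0.129 and 0.119 in DMSO and 0.196, 0.192 and 0.177 with ponatinib, and that of Psmb9 to Psmb8 was 0.25, 0.254 and 0.305 in DMSO and 0.258, 0.246 and 0.25 with ponatinib. The first of these does not overlap between groups and the second does.

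**Figure D3:**
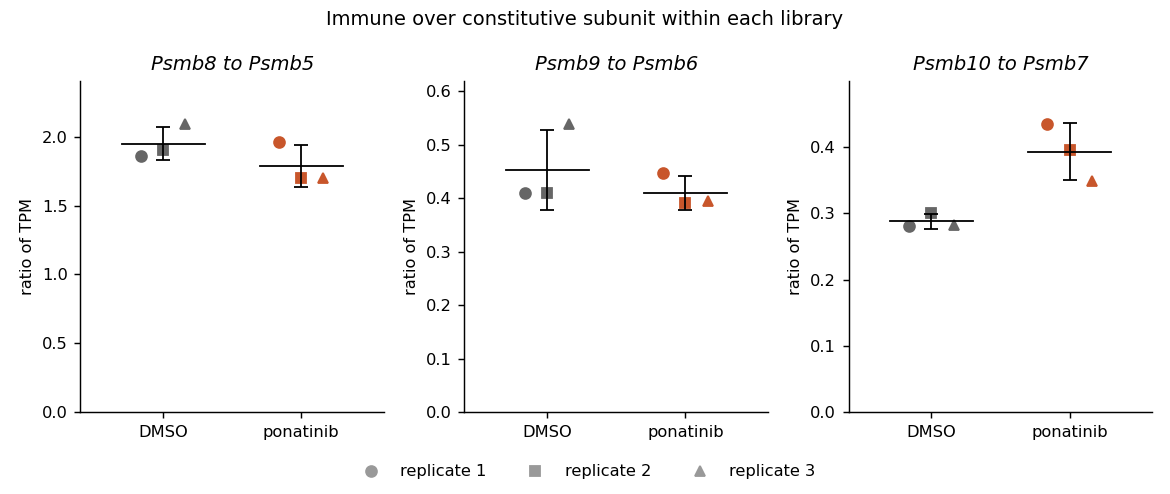
Ratio of the TPM of each immune catalytic subunit gene to that of its constitutive counterpart, in each of the 6 libraries, with the mean and SD of 3 libraries per group and axes that start at 0. Psmb10 to Psmb7 lies between 0.280 and 0.301 in DMSO and between 0.348 and 0.434 with ponatinib. The other ratios overlap between groups, with the highest value in DMSO 3.

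The Psmc and Psmd genes, which encode 19S cap subunits and some base assembly factors, held most of the calls. Of these 20 genes, called base and lid genes here, 9 rose, 1 fell and 10 were not called. Their median log2 fold change was 0.144, with a range of -0.25 to 0.25. The 14 core genes gave 0 and 0, with a median of 0.038 and a range of -0.06 to 0.15. Over all kept genes 27.3% rose and 9.13% fell, and the median was 0.10. With medians of ratios 1 of the 20 base and lid genes was higher and 3 were lower, and 0 and 1 of the core genes. The shares of all kept genes under that scaling were 15.5% higher and 16.7% lower. The difference between the groups of genes was not tested. Within each library the summed TPM of the base and lid genes over that of the core genes was 0.707, 0.706 and 0.701 in DMSO and 0.742, 0.756 and 0.751 with ponatinib, and this ratio does not depend on the scaling. The base ATPases alone gave 0.261, 0.260 and 0.255 of the core sum in DMSO and 0.281, 0.282 and 0.284 with ponatinib. In both ratios all ponatinib libraries lay above all DMSO libraries.

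The 6 base ATPase genes encode the ring that unfolds substrates. Of these genes 4 rose and 0 fell, where 27.3% of all kept genes rose and 9.13% fell. Medians of ratios gave 1 higher and 1 lower of the 6, against 15.5% and 16.7% of all kept genes. Psmc1 (chr12:100110154-100123405, plus strand), which encodes RPT2, stood at 245, 248 and 246 TPM in DMSO and 282, 296 and 299.9 TPM with ponatinib. The groups did not overlap, and the mean rose from 246 ± 1.56 to 292 ± 9.37 TPM (SD, n = 3 per group), 1.19-fold, with a log2 fold change of 0.25 (standard error 0.044, limma adjusted p = 0.00474). With 1 library left out the adjusted p was at most 0.0282. Scaling by medians of ratios left a difference of 0.15 (adjusted p = 0.0480). Psmc2, which encodes RPT1, stood at 157, 162 and 156 TPM in DMSO and 175, 182 and 183 TPM with ponatinib, with no overlap (log2 fold change 0.19, adjusted p = 0.0151). Psmc4 and Psmc5 rose by 0.18 (adjusted p = 0.0325) and 0.15 (adjusted p = 0.0379), also with no overlap between groups. Psmc3 stood at 284, 273 and 247 TPM in DMSO and 276, 287 and 291 TPM with ponatinib, with its lowest value in DMSO 3, and was not called (0.09, adjusted p = 0.284). Psmc6 was the only ATPase gene with a negative value, -0.10 (adjusted p = 0.264). Its nonsense-mediated decay transcript Psmc6-208 was at 15.1, 15.0 and 19.7 TPM in DMSO and at 8.80, 0 and 11.6 TPM with ponatinib, and the gene's row without its transcript rows gave 0.03.

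The 14 Psmd genes encode lid subunits, non-ATPase base subunits and base assembly factors. Among them 5 rose, 1 fell and 8 were not called, where 27.3% of all kept genes rose and 9.13% fell. Scaling by medians of ratios gave 0 higher and 2 lower, against 15.5% and 16.7% of all kept genes. Psmd7 (chr8:107580381-107588464, minus strand) encodes RPN8, the partner of the lid deubiquitinase. It stood at 224, 219 and 214 TPM in DMSO and 250.0, 258 and 263 TPM with ponatinib. The groups did not overlap, and the mean rose from 219 ± 4.73 to 257 ± 6.44 TPM (SD, n = 3 per group), with a log2 fold change of 0.23 (standard error 0.045, limma adjusted p = 0.00689, at most 0.0354 with 1 library left out). The call was lost with medians of ratios (0.13, adjusted p = 0.104). Psmd1 and Psmd2, the large scaffold subunits of the base, rose by 0.22 (adjusted p = 0.0346) and 0.17 (adjusted p = 0.0460), and Psmd6, a lid subunit, by 0.17 (adjusted p = 0.0304). Psmd5, a chaperone of base assembly, was low, at 24.8, 24.1 and 24.7 TPM in DMSO and 26.6, 31.8 and 30.0 TPM with ponatinib, and rose by 0.25 (adjusted p = 0.0382). It was not called when its transcript row was left out (0.22, adjusted p = 0.0850).

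Psmd8 (chr7:29174188-29180701, minus strand), which encodes the lid subunit RPN12, went the other way. It stood at 266, 263 and 278 TPM in DMSO and 220.3, 230.2 and 227 TPM with ponatinib. The groups did not overlap, and the mean fell 1.19-fold, from 269 ± 8.18 TPM in DMSO to 226 ± 5.12 TPM with ponatinib (SD, n = 3 per group), with a log2 fold change of -0.25 (95% confidence interval -0.36 to -0.14, limma adjusted p = 0.00520, at most 0.0243 with 1 library left out). With medians of ratios it was -0.35 (adjusted p = 8.87e-04). Its ratio to Psmd7, chosen after the values were seen and not tested, was 1.19, 1.20 and 1.30 in DMSO and 0.881, 0.894 and 0.865 with ponatinib. Both genes encode lid subunits, and Psmd8 was the more abundant transcript in each DMSO library and the less abundant in each ponatinib library. Psmd14, which encodes the lid deubiquitinase RPN11, stood at 177, 171 and 181 TPM in DMSO and 169, 176 and 173 TPM with ponatinib and overlapped (log2 fold change -0.03, adjusted p = 0.648). It passed narrowly with medians of ratios (-0.13, adjusted p = 0.0490). Psmd11 and Psmd12, lid subunits, had values of 0.19 (adjusted p = 0.116) and 0.14 (adjusted p = 0.117), and Psmd11 passed without DMSO 3 (0.28, adjusted p = 0.00416). Psmd3, Psmd4, Psmd9, Psmd10 and Psmd13 differed by -0.01 to 0.09 and overlapped. For Psmd9 the gene's row alone gave 0.29 and passed (adjusted p = 0.0444), while the sum with its transcript rows, which hold 47.6% of the level, gave 0.03.

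**Figure D4:**
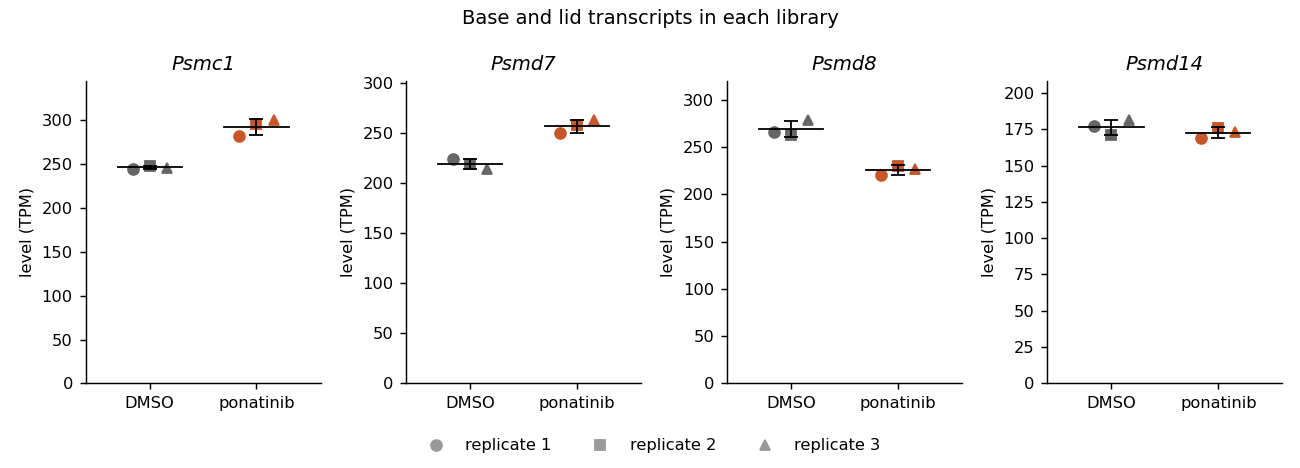
Levels in TPM, on axes that start at 0, of the base ATPase gene Psmc1 and the lid genes Psmd7, Psmd8 and Psmd14. Each point is a library, its shape the replicate number, with the mean and SD of 3 libraries per group. Psmc1 and Psmd7 lie higher with ponatinib and Psmd8 lower, with no overlap, while the Psmd14 groups overlap.

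Most of these base and lid calls were near the threshold and rested on all libraries being used. Psmc2, Psmc4, Psmc5, Psmd1, Psmd2, Psmd5 and Psmd6 each lost their call without DMSO 1, without ponatinib 2 and without ponatinib 3, with limma adjusted p up to 0.0705 for Psmc2 and 0.151 for Psmd2 and Psmd5. Without any 1 of those libraries 2 of the 20 base and lid genes rose, and without DMSO 2, 5 did. The count of all proteasome genes that rose was 4 without any 1 of those libraries, 7 without DMSO 2, 10 without ponatinib 1 and 13 without DMSO 3, in place of 11. Without DMSO 3, 39.3% of all kept genes rose and 9.86% fell. For the other libraries left out, the share of all kept genes is not given, here or for the lists below. Whether the calls over all genes dropped alike is therefore not shown.

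Outside the cap and core, the activator gene Psme3 rose. Psme3 (chr11:101316213-101323537, plus strand) encodes PA28 gamma, a nuclear activator that opens the core for degradation without ubiquitin. It stood at 211, 222 and 210.4 TPM in DMSO and 265, 293 and 297 TPM with ponatinib. The groups did not overlap, and the mean rose from 214 ± 6.90 to 285 ± 17.5 TPM (SD, n = 3 per group), 1.33-fold. The log2 fold change was 0.41 (standard error 0.058, 95% confidence interval 0.27 to 0.54, limma adjusted p = 0.00193, at most 0.0130 with 1 library left out), and 0.30 with medians of ratios (adjusted p = 0.00909). Its ratio to Psme1, chosen after the values were seen and not tested, was 0.365, 0.421 and 0.336 in DMSO and 0.454, 0.535 and 0.525 with ponatinib, with no overlap. Psme4, which encodes the activator PA200, was low and even, at 23.7, 22.6 and 23.7 TPM in DMSO and 22.5, 23.6 and 23.3 TPM with ponatinib (log2 fold change -0.01, adjusted p = 0.893). Psmf1, which encodes the inhibitor PI31, stood at 46.6, 47.7 and 51.9 TPM in DMSO and 52.3, 48.8 and 51.7 TPM with ponatinib (0.06, adjusted p = 0.468).

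Psme2b, a near copy of Psme2 that also overlaps the gene Gm12185 on the same strand by 837 bases, is uncertain, since reads can be split between copies. It stood at 8.47, 6.61 and 19.6 TPM in DMSO and 16.7, 14.3 and 12.9 TPM with ponatinib, with its highest value in DMSO 3 (log2 fold change 0.45, standard error 0.325, adjusted p = 0.313). Without DMSO 3 its difference was 0.87 (adjusted p = 0.00104).

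The 4 assembly genes encode the chaperones PAC1 to PAC4, which help the alpha ring to form. By limma 0 were called in either direction, where 27.3% of all kept genes rose and 9.13% fell. There was 1, Psmg3, at an unadjusted p under 0.05, and the share of all kept genes at that threshold is not given. Psmg3 stood at 73.4, 66.3 and 69.6 TPM in DMSO and 72.3, 79.8 and 81.5 TPM with ponatinib (log2 fold change 0.16, adjusted p = 0.104). Psmg2 stood at 63.6, 62.8 and 72.2 TPM in DMSO and 70.5, 73.3 and 75.4 TPM with ponatinib (0.14, adjusted p = 0.135). The groups overlapped in both genes, and Psmg2 passed without DMSO 3 (0.21, adjusted p = 0.0134). Psmg1 and Psmg4 differed by -0.04 and 0.03. Psmc3ip stood at 17.7 to 19.9 TPM in DMSO and 18.8 to 22.2 TPM with ponatinib (0.14, adjusted p = 0.255).

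Genes that work with the proteasome under other names were counted in lists. Of 15 kept partners (cofactors, maturation factors and shuttles) 4 rose and 1 fell, with a median of 0.017, against 27.3% and 9.13% of all kept genes. With medians of ratios the counts were 1 and 3, against 15.5% and 16.7% of all kept genes. Among the partners 1 rose without DMSO 1, ponatinib 2 or ponatinib 3, and 2 without DMSO 2 or ponatinib 1. Without DMSO 3, 5 partners rose, where 39.3% of all kept genes did so. Pomp, the maturation factor of the core, stood at 393, 424 and 382 TPM in DMSO and 450, 507 and 478 TPM with ponatinib and did not overlap (log2 fold change 0.26, adjusted p = 0.0137). Its adjusted p was 0.0509 without DMSO 1, 0.0591 without ponatinib 2 and 0.0517 without ponatinib 3. Ube3c, a ubiquitin ligase of the proteasome, rose by 0.33 (adjusted p = 0.0115, 0.0551 without ponatinib 3). Of 6 ubiquitin and ubiquitin-activating genes 1 rose and 2 fell, against 27.3% and 9.13% of all kept genes. Under medians of ratios 0 were higher and 3 lower, against 15.5% and 16.7% of all kept genes. The count that fell was 1 without any 1 library other than DMSO 3. Uba6, an activating enzyme, stood at 17.6, 17.1 and 17.0 TPM in DMSO and 21.6, 21.9 and 20.8 TPM with ponatinib and rose by 0.30 (adjusted p = 0.0111, 0.0550 without ponatinib 2).

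Of 5 genes that regulate proteasome transcription through NRF1 and NRF2, 2 rose and 0 fell, against 27.3% and 9.13% of all kept genes. Under medians of ratios 1 was higher and 1 lower, against 15.5% and 16.7% of all kept genes. Ddi2, the protease that activates NRF1, stood at 23.0, 22.2 and 25.3 TPM in DMSO and 29.4, 31.4 and 30.4 TPM with ponatinib (log2 fold change 0.36, adjusted p = 0.00720). Vcp, the segregase that extracts it from the endoplasmic reticulum, stood at 380.0, 384 and 366 TPM in DMSO and 429.7, 452 and 445 TPM with ponatinib (0.23, adjusted p = 0.00614, but 0.116 with medians of ratios). Nfe2l1 itself, which encodes NRF1, stood at 53.8, 45.1 and 77.6 TPM in DMSO and 36.7, 44.8 and 43.4 TPM with ponatinib, all below the DMSO libraries, and was not called (-0.46, adjusted p = 0.0800). It passed without DMSO 2 (-0.63, adjusted p = 0.0244) and with medians of ratios (-0.56, adjusted p = 0.0306). Its highest value was in DMSO 3, without which the difference was -0.24 (adjusted p = 0.0754).

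Interferon signalling is the known inducer of the immune subunits. Of 12 kept regulators 5 rose and 1 fell, with a median of 0.197, against 27.3% and 9.13% of all kept genes. Medians of ratios gave the same 2 counts, against 15.5% and 16.7% of all kept genes. Without DMSO 3, 8 of 11 rose and 0 fell, with a median of 0.334, where 39.3% and 9.86% of all kept genes did so. The count that fell was also 0 without DMSO 1 or any 1 ponatinib library. Jak1, a kinase of the interferon receptors, rose from 81.6 ± 1.59 to 123 ± 8.21 TPM (SD, n = 3 per group, log2 fold change 0.58, limma adjusted p = 6.17e-04). Irf1, a factor that drives the immune subunit genes, stood at 84.7, 86.3 and 96.5 TPM in DMSO and 124, 115 and 114 TPM with ponatinib, with no overlap (0.40, adjusted p = 0.00358). The one that fell was Stat2, named after its values were seen, at 11.0, 9.64 and 24.4 TPM in DMSO and 7.93, 6.69 and 5.80 TPM with ponatinib (-0.93, adjusted p = 0.0430). It was under the minimum level without DMSO 3 and lost its call without DMSO 1 or any 1 ponatinib library (adjusted p up to 0.143). Of the 5 immune proteasome genes, Psmb10 was the one that rose.

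Of 10 genes of peptide loading and MHC class I, 3 rose and 1 fell, with a median of 0.134. The shares of all kept genes were 27.3% and 9.13%. Under medians of ratios 2 were higher and 2 lower, against 15.5% and 16.7% of all kept genes. Without DMSO 3, 6 rose and 1 fell, with a median of 0.231, where 39.3% of all kept genes rose and 9.86% fell. Genes of this list that rose then included B2m, H2-K1 and Canx, named after their values were seen. The count that rose was 2 without DMSO 1, DMSO 2, ponatinib 1 or ponatinib 3, where Erap1 was not called. Calr, a chaperone of class I loading, stood at 543, 539 and 534 TPM in DMSO and 748, 754 and 734 TPM with ponatinib (log2 fold change 0.47, adjusted p = 2.70e-04), and Pdia3 rose by 0.24 (adjusted p = 0.00466). Tap1, a subunit of the transporter that carries proteasome products into the endoplasmic reticulum, stood at 230.1, 232 and 257 TPM in DMSO and 176, 174 and 164 TPM with ponatinib and fell by 0.48 (adjusted p = 0.00122). Tap1 lies between Psmb8 and Psmb9 on chromosome 17. It is 495 bases from Psmb8 and overlaps Psmb9 by 212 bases on the other strand, so that without stranded counting some reads of the 2 genes cannot be told apart. The ratio of Psmb9 to Tap1, chosen after the values were seen and not tested, was 0.775, 0.795 and 0.864 in DMSO and 1.03, 0.941 and 1.0 with ponatinib. It did not overlap between groups, although Psmb9 itself did.

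**Figure D5:**
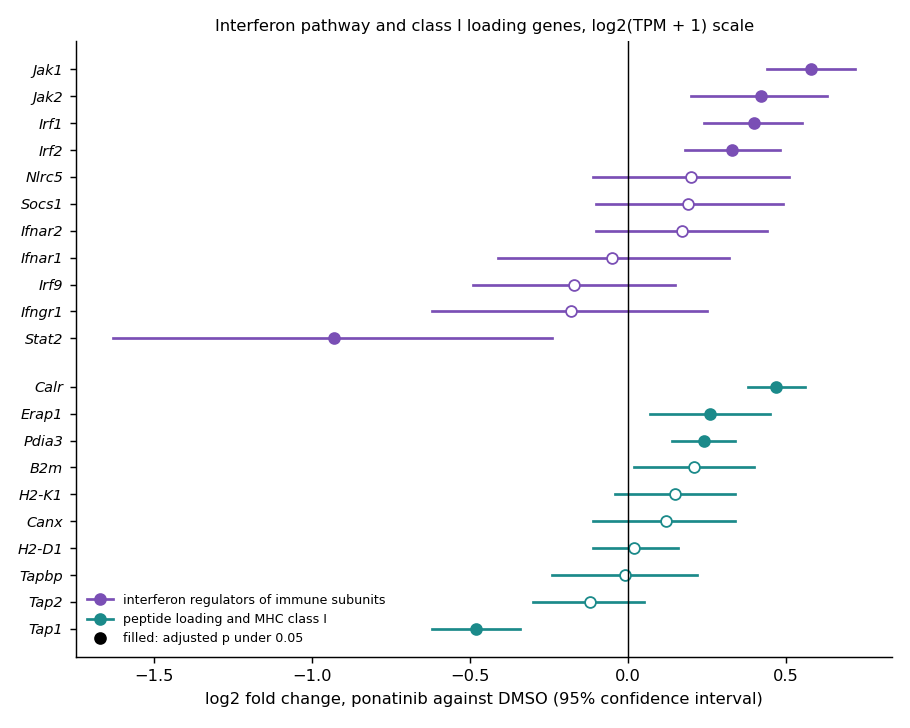
Log2 fold change of ponatinib against DMSO, on the log2(TPM + 1) scale, for 11 kept interferon regulators and the peptide loading and MHC class I genes. Points are limma estimates from 3 libraries per group, bars are 95% confidence intervals, and filled points passed an adjusted p of 0.05. Jak1, Irf1 and Calr lie right of 0 and Tap1 and Stat2 left of it, while H2-D1 lies at 0.02.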

How the data were processed

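RNA was measured in 6 libraries, 3 with DMSO and 3 with ponatinib, grouped and numbered by their titles. The deposited table holds 1 column per library, each of which adds up to 1000000, and the authors' values were treated as TPM. Per the submitters' processing notes the build was GRCm38 and the tools included Salmon 1.5.1, fastp 0.19.5 and DESeq2 1.22.1, whose roles they do not give. TPM keep no read depth, so the depth is unknown and counting intervals cannot be computed, and a change in abundant genes moves all others. The table has 43072 rows, 22095 with gene and 20977 with transcript identifiers, of which 22011 and 20793 were found in GENCODE M21 (GRCm38), which gave names and coordinates. Transcript rows were added to their gene. Every column matched a library of the series, and of 4 pseudogenes with a matching name 0 had a row.

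A mean of 10 TPM or more was required, which kept 6816 genes. Ponatinib was compared with DMSO on log2(TPM + 1), which understates changes of low genes, with limma 3.58.1 (lmFit, eBayes with trend) in R 4.3.3, tested on simulated data first. Adjusted p are Benjamini-Hochberg over all kept genes, two-sided, called under 0.05. Folds without a log2 scale are ratios of mean TPM. Ratios within libraries were compared by exact permutation (scipy 1.17.1). Alternatives were medians of ratios, quantile normalization, a pseudocount of 0.1, other minimum levels, gene rows alone, the replicate number as a block, a robust fit and each library left out.

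The genes and lists were chosen with earlier results of these data known. Values in every library are given for the catalytic subunits and activators, and in each other group for the 2 genes with the smallest p and the 1 with the largest change, and from other lists for up to 3 genes with the smallest p; further genes are named to account for every member. Of the partner list, Paaf1 had no row under its name and was not analysed here, and some results of listed genes and motifs are not reported here. Promoter windows are from RefSeq.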

Additional observations from a re-analysis of the deposited data

How the results depend on the processing

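The count of proteasome genes that rose, 11, was 3 after scaling by medians of ratios, 4 after quantile normalization, and 4 to 13 with 1 library left out. The count that fell, 1, was 6 and 4 under the 2 normalizations and 1 with any library left out. Both normalizations lower the ponatinib values relative to DMSO, which takes genes near 0 across it. With medians of ratios the sign changed for Psma1 (-0.04), Psma2 (-0.04), Psma3 (-0.05), Psma6 (-0.06), Psmb2 (-0.01), Psmb5 (-0.07), Psmb7 (-0.02), Psmc3 (-0.01), Psmd3 (-0.01), Psmd9 (-0.07), Psmd10 (-0.01), Psmd13 (-0.03), Psmg4 (-0.07) and Psmf1 (-0.04), and with quantile normalization for Psma2 (-0.01), Psma6 (-0.01), Psmb5 (-0.05), Psmd9 (-0.07) and Psmg4 (-0.03). With gene rows alone Psmc6 was 0.03 and Psme4 0.01. With 1 library left out the value ran from -0.001 to 0.07 for Psma6, -0.04 to 0.03 for Psmb3, -0.03 to 0.01 for Psmb4, -0.02 to 0.07 for Psmb5, -0.09 to 0.03 for Psme1, -0.02 to 0.12 for Psmd13, -0.06 to 0.05 for Psmd4, -0.04 to 0.10 for Psmd9, -0.09 to 0.02 for Psmg1, -0.01 to 0.06 for Psmg4 and -0.04 to 0.01 for Psme4. The log2 ratio of Psmb9 to Psmb6 ran from -0.20 to 0.0008. None of these genes was called in the reported fit. Other minimum levels gave 8 to 10 genes that rose, and the other pseudocount, gene rows alone and the robust fit gave 11.

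The correlations of same-numbered libraries' deviations were -0.10, 0.114 and 0.023, which gave no sign of pairing by replicate number. With 3 libraries per group they cannot exclude it. With the replicate number as a block, 8 genes rose and 1 fell: Psmc5, Psmd1, Psmd2 and Psmd5 were no longer called and Psmd11 was. With 3 libraries per group, the scatter of the libraries limits precision, and differences in transcript do not measure protein or proteasome activity.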
